A study of Mus musculus with 6 samples.

Results

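Rbm4 and 5 related genes of the RNA-binding motif family, Rbm4b, Rbm3, Rbm5, Rbm10 and Rbm47, were described at the level of splice junctions in mouse hepatocytes. The 6 genes were selected on earlier results of these data, in which Rbm4 stood among the genes whose splicing differed between diets, and their local splicing variations (LSVs) were then taken by gene name. They held 36 of the 32799 LSVs listed on either diet, in 6 of 7182 genes. HFD hepatocytes came from male C57BL/6J mice fed a diet with 60% fat for 12 weeks, and LFD hepatocytes from male C57BL/6J mice fed a diet with 10% fat for the same time. All mice were 8 weeks old at the switch and had eaten normal chow with 13.5% fat before it, and each diet had 3 libraries. The deposited tables give 1 value per diet with the 3 libraries pooled, so the spread between animals is unknown, and every error below is a posterior SD that covers reads alone. No member could be tested across animals, and all differences are descriptions.

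An LSV gathers the junctions, and sometimes a retained intron, on 1 side of a reference exon. PSI is the fraction of the LSV's reads that use a given junction, and the program MAJIQ gives it as a posterior mean between 0.0125 and 0.9875. The 2 ends of an exon skip can be seen from 2 LSVs, which then give 2 PSI values for the same junction from overlapping reads.

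RNA-binding motif proteins hold RNA recognition motifs and many of them control splicing, some of them including that of their own transcripts. RBM4 and its close paralog RBM4B bind pre-mRNA and also act in translation. RBM3 is induced by cold and belongs with the cold-inducible protein CIRBP. RBM5 and RBM10 are related splicing regulators, known in human cells for targets such as Fas (RBM5) and Numb (RBM10), and RBM47 is a cofactor of APOBEC1 in editing the Apob transcript, a step well known in liver.

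Rbm4 (ENSMUSG00000094936, chr19:4784293-4793901 of mm10, minus strand) differed between diets in its first exon. The locus has 3 LSVs with 7 entries in both diets, where an entry is a junction or a retained intron as 1 LSV lists it. Exon 1 can end at an upstream or a downstream 5′ splice site (donor), 144 bases apart, both joined to the same exon 2. All of exon 1 is 5′ untranslated sequence, so the choice leaves the coding sequence as it is. The sites are shown because the difference between diets lies in this choice. The first line is the exon around the upstream donor, with capitals at the GT after that donor and at the GT after another, little-used donor 11 bases before it; the second line is the exon up to the downstream donor with its last 3 bases in capitals; the last pair are the spliced products, with exon 2 in capitals.
Rbm4 upstream donor region: cctgcagGTatccatgcgGTgagatactcc
Rbm4 exon up to downstream donor: agagccgacatcggtcctcgacttagtGCG
Rbm4 upstream donor spliced to exon 2: gcaggtatccatgcgGCTGTGTGGAGATGG
Rbm4 downstream donor spliced to exon 2: cctcgacttagtgcgGCTGTGTGGAGATGG
The sequences are from GENCODE M21 transcripts on GRCm38, the same assembly as mm10, read on the minus strand. The last 3 bases of exon 1 were the same at both donors, as the capitals of the second line and the bases before exon 2 in the third show.

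The junction from the upstream donor (chr19:4792821-4793815) had a PSI of 0.762 ± 0.0425 in HFD hepatocytes, against 0.485 ± 0.0454 in LFD hepatocytes. The junction from the downstream donor (chr19:4792821-4793671) had a PSI of 0.224 ± 0.0417 in HFD hepatocytes and 0.494 ± 0.0454 in LFD hepatocytes. Thus the donors were used about equally on LFD, and the upstream one, which makes the shorter first exon, was the more used on HFD. The difference, HFD minus LFD, was 0.277 for the upstream donor (95% posterior interval 0.155 to 0.399) and −0.269 for the downstream donor (−0.39 to −0.149). The little-used donor had a PSI of 0.0161 ± 0.0096 in HFD hepatocytes and 0.0213 ± 0.0134 in LFD hepatocytes, low on both diets. A junction was called different when its PSI differed by at least 0.2 and the 95% posterior interval of the difference, from the variances of both diets, excluded 0. These 2 Rbm4 junctions met the rule, 1 higher and 1 lower, and were the only ones of the 56 entries that the 6 genes had on both diets. Over all genes the same rule called 284 of 68110 entries (0.417%), 168 of 26910 LSVs (0.624%) and 138 of 5978 genes (2.31%). Because Rbm4 was chosen for this contrast, its count is not evidence set against that background.

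**Figure D1:**
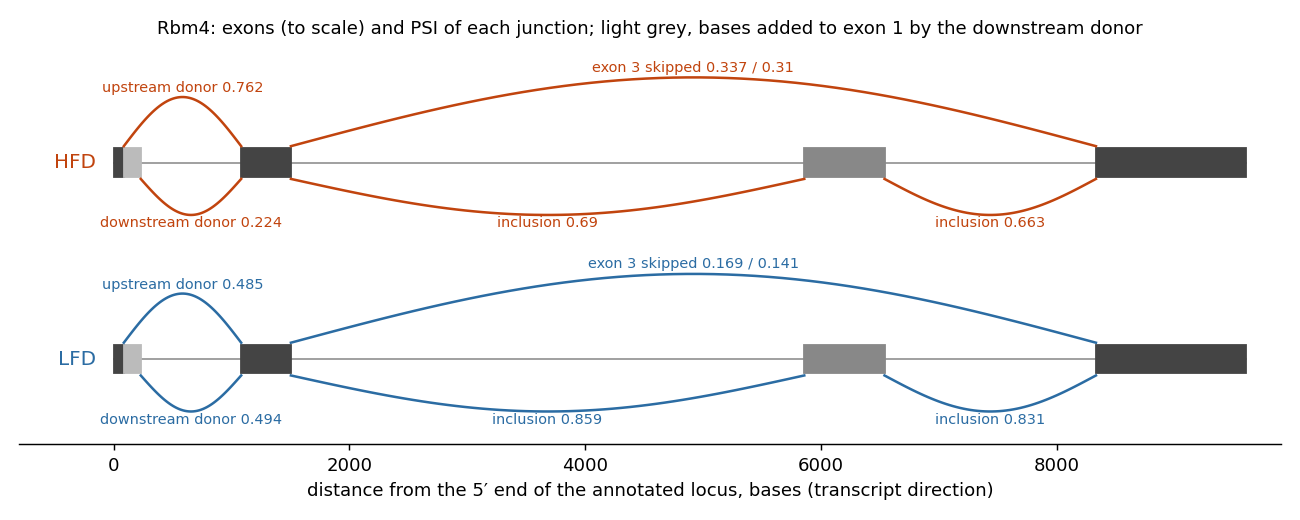
Exons of Rbm4, to scale in transcript direction with distance in bases from the 5′ end of the annotated locus, with an arc for each main junction and its PSI in HFD hepatocytes (top) and LFD hepatocytes (bottom). The upstream donor stands at 0.762 on HFD and 0.485 on LFD, and skipping of exon 3 at 0.337 and 0.31 on HFD and at 0.169 and 0.141 on LFD, as seen from the LSVs at either end of the skip.

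The Rbm4 donor choice was listed in both of the authors' own comparisons. The authors' deposited dPSI table, from a MAJIQ run marked as strict, gave PSI values of 0.763 in HFD and 0.482 in LFD hepatocytes for the upstream donor, a change of 0.277. For the downstream donor the authors' deposited dPSI table gave 0.223 in HFD and 0.497 in LFD hepatocytes, a change of −0.266. Rbm4 was the only one of the 6 genes in that table, with 1 LSV, and 97 of the 26910 shared LSVs (0.36%) are in it. The authors' deposited JUM table, from a separate program, listed the same pair of junctions as alternative 5′ splice sites, with changes of 0.3831 and −0.3831, a p of 0.000801 and an adjusted p of 0.0385. The heading of its change column reads HFD minus LFD, while its title line names NC, a short form of normal chow in the labels. The groups and the direction given here follow the heading, and which libraries were compared is not given. Of its 470 listed events, 83 (17.7%) had an adjusted p under 0.05, and the Rbm4 event was the only event of the 6 genes listed. The JUM change was 0.3831 against 0.277 in the PSI tables, with the same signs. Given the title line, these may not be values of the same contrast. If the libraries are the same, the tables are not independent.

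A further difference in Rbm4 fell below the 0.2 size. Exon 3 (chr19:4787361-4788042), 682 bases long, holds 671 coding bases and the stop codon of the full-length reading frame of 361 codons. When it is skipped, exon 2 joins the last exon, where the frame runs on for 17 bases to another stop, leaving 143 codons. The junctions are shown because skipping removes 671 of the 1083 coding bases. The first line is the skipping junction with its stop codon in capitals, and the second is the end of the coding sequence in exon 3 with its stop codon in capitals.
Rbm4 exon 2 spliced to last exon: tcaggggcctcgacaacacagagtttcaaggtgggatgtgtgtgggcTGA
Rbm4 exon 3, end of coding sequence: gcggatcgggcgcggtactcagcctttTAA
Both products are annotated as protein-coding, and both are annotated with either first-exon donor.

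Skipping of exon 3 (chr19:4785568-4792397) had a PSI of 0.337 ± 0.049 in HFD hepatocytes and 0.169 ± 0.0338 in LFD hepatocytes from the LSV of the last exon. From the LSV of exon 2 it was 0.31 ± 0.0456 in HFD and 0.141 ± 0.0293 in LFD hepatocytes. The inclusion junctions were correspondingly lower on HFD, at 0.69 ± 0.0456 (HFD) and 0.859 ± 0.0293 (LFD) for the first and 0.663 ± 0.049 (HFD) and 0.831 ± 0.0338 (LFD) for the last. Skipping was thus more frequent on HFD as seen from both ends, by 0.169 in each LSV, with intervals of 0.0522 to 0.285 and 0.0626 to 0.275. With a size of 0.1 in place of 0.2, 6 of the 7 Rbm4 entries met the rule, in all 3 LSVs, as did 1953 of all 68110 entries (2.87%). Exon 3 skipping is in neither the dPSI table nor the JUM table.

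**Figure D2:**
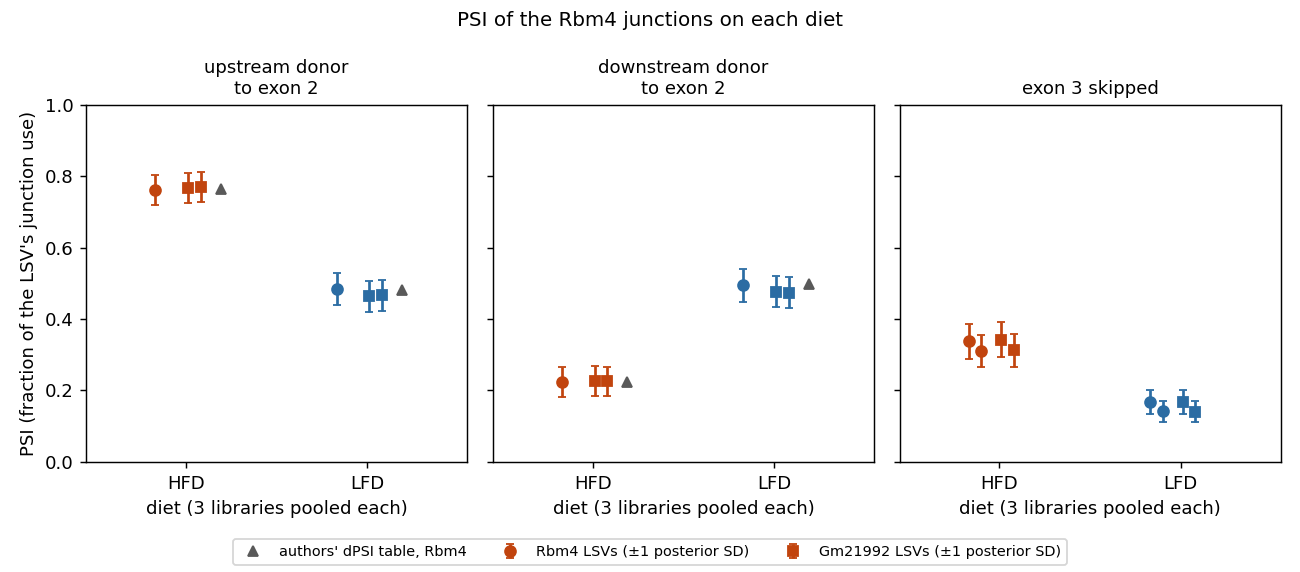
PSI of 3 Rbm4 junctions (vertical axis, fraction of the LSV's junction use) in HFD (left) and LFD hepatocytes (right), from Rbm4's own LSVs (circles), the LSVs of the overlapping gene Gm21992 (squares), both with 1 posterior SD, and the authors' dPSI table (triangles). In each panel the values of a diet lie close together, and the HFD values lie on 1 side of the LFD values.

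The same reads appear under another gene name. Gm21992 (ENSMUSG00000096370, chr19:4742913-4811612, minus strand), a predicted gene whose annotated span covers Rbm4, lists all 6 of Rbm4's junctions in LSVs of its own. Its LSVs gave the upstream donor 0.768 ± 0.0421 and 0.769 ± 0.042 in HFD hepatocytes, against 0.464 ± 0.0441 and 0.466 ± 0.0439 in LFD hepatocytes. They gave exon 3 skipping 0.342 ± 0.049 and 0.312 ± 0.0461 in HFD hepatocytes, against 0.167 ± 0.0339 and 0.141 ± 0.0292 in LFD hepatocytes. The authors' deposited dPSI table holds 2 LSVs of Gm21992, with changes of 0.307 and 0.314 at the upstream donor and −0.215 and −0.23 at the downstream donor. These are the same junctions as Rbm4's and add no separate measurement. In a search of 141767 annotated transcripts for the 30 bases on either side of each junction, the skipping junction and the upstream donor junction were found in Rbm4 transcripts alone, while the inclusion junctions and the downstream donor junction were found in transcripts of both Rbm4 and Gm21992. Reads of the shared junctions cannot be assigned to either gene.

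Rbm4b (ENSMUSG00000033760, chr19:4756497-4767065, plus strand) had 4 LSVs with 11 entries on LFD and none in the HFD table, so no diet comparison was possible. The 412 coding bases of its exon 2 are identical to those of Rbm4 at all 412 positions, and the product of its main reading frame has 357 codons against 361 in Rbm4. The junction of exon 2 with exon 3 is shown for both genes because reads must be told apart there; capitals mark the 4 of 60 bases that differ.
Rbm4 exon 2 spliced to exon 3: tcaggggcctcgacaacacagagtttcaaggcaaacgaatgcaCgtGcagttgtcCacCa
Rbm4b exon 2 spliced to exon 3: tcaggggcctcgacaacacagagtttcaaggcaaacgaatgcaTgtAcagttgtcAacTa
Reads that end before the first difference cannot be assigned to either paralog by their own bases. The treatment of such reads is not given in the sources used, so the inclusion values of both genes are uncertain to that extent. The same holds for the exon 3 skipping values of Rbm4 from the LSV of exon 2, which share an LSV with inclusion.

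In LFD hepatocytes Rbm4b spliced exon 2 to exon 3 (chr19:4757670-4761976) at a PSI of 0.801 ± 0.0443 from the exon 2 side and 0.874 ± 0.0382 from the exon 3 side. Exon 2 was spliced instead to an exon beginning at chr19:4760013 at 0.196 ± 0.044. That exon, 270 bases long, occurs in a transcript annotated as subject to nonsense-mediated decay, the pathway that removes transcripts with early stop codons. It is shown from its first base to its stop codon, in capitals, because it ends the frame early.
Rbm4b exon after exon 2, to its stop: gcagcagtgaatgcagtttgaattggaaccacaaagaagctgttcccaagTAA
A 53-base stretch listed as a retained intron (chr19:4761343-4761395), which matches no annotated intron, was at 0.122 ± 0.0377. Another exon annotated only in a nonsense-mediated decay transcript (chr19:4764350-4764571) was entered at 0.0457 ± 0.0258 after exon 3 and left at 0.113 ± 0.0357 and 0.0676 ± 0.0287 by its 2 outgoing junctions. None of Rbm4b's listed LSVs holds a junction from exon 2 to the last exon, the counterpart of exon 3 skipping in Rbm4.

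Rbm3 (ENSMUSG00000031167, chrX:8138975-8145880, minus strand), the cold-inducible member, had 5 LSVs with 15 entries on both diets and none past the rule. Its 271-base exon at chrX:8144175-8144445 occurs only in transcripts annotated as subject to nonsense-mediated decay. It adds 60 coding bases and then a stop codon, 208 bases before the exon's end. It is shown to that stop, in capitals, because including it would end the frame early.
Rbm3 271-base exon to its stop: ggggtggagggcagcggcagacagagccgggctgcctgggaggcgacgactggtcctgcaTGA
The junction leaving this exon had a PSI of 0.0668 ± 0.0236 in HFD hepatocytes and 0.0684 ± 0.0188 in LFD hepatocytes. The junction entering it was at 0.101 ± 0.0278 in HFD and 0.0812 ± 0.0199 in LFD hepatocytes. Its use was low on both diets, with differences of −0.00161 (interval −0.0607 to 0.0575) and 0.0195 (−0.0474 to 0.0865).

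Rbm3 also uses a pair of 3′ splice sites (acceptors) 3 bases apart, which add or drop 1 codon, in reading frames of 154 and 153 codons. The line shows the junction with the 3 optional bases in capitals.
Rbm3 junction at the paired acceptors: agactacagtggcagAAGccagggtggcta
The acceptor that keeps these bases had a PSI of 0.48 ± 0.0415 in HFD hepatocytes and 0.5 ± 0.0355 in LFD hepatocytes. The acceptor that drops them had 0.52 ± 0.0415 in HFD and 0.5 ± 0.0355 in LFD hepatocytes, so both were used about equally on each diet, and the difference of 0.0196 has an interval of −0.0875 to 0.127. At the other end of the exon that these acceptors begin, past its stop codon, a pair of donors 4 bases apart was used unequally. The first donor was at 0.767 ± 0.0358 in HFD and 0.693 ± 0.0312 in LFD hepatocytes, and the other at 0.231 ± 0.0357 in HFD and 0.232 ± 0.028 in LFD hepatocytes. The largest difference of Rbm3 was that of the first donor, 0.0741 (−0.0189 to 0.167), and from the LSV of the other exon the same junction differed by 0.0263. A 72-base stretch listed as a retained intron, chrX:8142956-8143027, matches no annotated intron. The annotated introns with the same start coordinate are 295 and 291 bases long. The stretch was at 0.0125 ± 0.00105 in HFD hepatocytes, close to the lowest value the tables give, and 0.0752 ± 0.0179 in LFD hepatocytes. Its difference of −0.0627 exceeds the posterior error but not the size limit. From the other LSV that lists it the stretch was at 0.0125 ± 0.000707 in HFD and 0.0132 ± 0.00427 in LFD hepatocytes.

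Rbm5 (ENSMUSG00000032580, chr9:107740371-107770996, minus strand), a splicing regulator of apoptosis genes, had 11 LSVs with 26 entries on both diets, the most of the 6 genes, and none past the rule. Its largest difference was in the first intron. The main junction (chr9:107769627-107770884) was at 0.96 ± 0.0235 in HFD hepatocytes and 0.868 ± 0.032 in LFD hepatocytes, a difference of 0.0925 (0.0146 to 0.17). An alternative donor for the same acceptor (chr9:107769627-107770560) was at 0.0202 ± 0.0145 in HFD and 0.0997 ± 0.0285 in LFD hepatocytes, a difference of −0.0795 (−0.142 to −0.0168). As in Rbm4, the entries concern the donor of the first intron, but here both differences are under 0.1.

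The 61-base and 85-base cassette exons of Rbm5 were mostly included on both diets. Skipping of a 61-base exon (chr9:107755853-107755913), a skip annotated in no protein-coding transcript, was at 0.0909 ± 0.0276 and 0.133 ± 0.0385 in HFD hepatocytes, against 0.086 ± 0.0263 and 0.104 ± 0.0313 in LFD hepatocytes, from the LSVs at either end. Skipping of an 85-base exon (chr9:107750008-107750092) was at 0.0714 ± 0.0293 and 0.0806 ± 0.0323 in HFD hepatocytes, against 0.0933 ± 0.0285 and 0.0837 ± 0.0256 in LFD hepatocytes. The values overlap between diets within their posterior SDs. Rbm5 also had 3 short stretches listed as retained introns, at low levels. That of 96 bases (chr9:107749912-107750007) matches no annotated intron. The annotated introns with the same end coordinate are 208 and 211 bases long. The 96-base stretch was at 0.0386 ± 0.023 in HFD and 0.119 ± 0.0319 in LFD hepatocytes, a difference of −0.0801 (−0.157 to −0.00288). A 79-base intron was at 0.0979 ± 0.0263 and 0.0584 ± 0.021 in HFD hepatocytes, against 0.0537 ± 0.0167 and 0.0613 ± 0.0176 in LFD hepatocytes. The remaining intron, of 84 bases, was at 0.0491 ± 0.0225 and 0.0498 ± 0.0227 in HFD hepatocytes, against 0.0441 ± 0.0175 and 0.0197 ± 0.0122 in LFD hepatocytes. An acceptor 4 bases from the main one (chr9:107765647-107767542) was little used, at 0.0132 ± 0.00433 in HFD and 0.0126 ± 0.0019 in LFD hepatocytes.

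Rbm5 and Rbm10 share an exon of 74 bases, a length that shifts the frame when the exon is skipped. It is shown for both because each gene skipped it in LFD hepatocytes; capitals mark the 13 bases that differ, and the other 61 (82.4%) are the same.
Rbm5 74-base exon, chr9:107759776-107759849: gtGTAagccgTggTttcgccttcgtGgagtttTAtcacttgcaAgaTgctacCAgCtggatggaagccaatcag
Rbm10 74-base exon, chrX:20641183-20641256: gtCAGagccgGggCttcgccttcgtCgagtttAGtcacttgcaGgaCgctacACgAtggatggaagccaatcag
In LFD hepatocytes Rbm5 skipped its copy at a PSI of 0.306 ± 0.0461 and included it at 0.694 ± 0.0461. Rbm10 skipped its copy at 0.0627 ± 0.0278 and 0.0707 ± 0.0308 in the LSVs at either end. The skipping junction of Rbm5 is annotated in nonsense-mediated decay transcripts alone, and that of Rbm10 is not annotated in GENCODE M21. These LSVs are in the LFD table only, so nothing can be said of the exon on HFD.

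Rbm10 (ENSMUSG00000031060, chrX:20617503-20650901, plus strand) had 2 LSVs with 4 entries on both diets and 5 LSVs with 10 entries on LFD alone. On both diets it was measured at a 77-base intron (chrX:20650270-20650346), retained at 0.0508 ± 0.0196 and 0.022 ± 0.0138 in HFD hepatocytes, against 0.0126 ± 0.00119 and 0.0126 ± 0.00118 in LFD hepatocytes. The larger difference was 0.0383, with an interval of −0.000179 to 0.0767. In LFD hepatocytes alone, a first-exon donor was at 0.987 ± 0.00315 and another, 31 bases away, at 0.0129 ± 0.00315. Also on LFD alone, an in-frame exon of 231 bases, or 77 codons (chrX:20637426-20637656), was included at 0.186 ± 0.0448 and 0.272 ± 0.0493 from its 2 ends. The product without it, of 853 codons against 929 or 930 with it, was therefore the more used in LFD hepatocytes.

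Rbm47 (ENSMUSG00000070780, chr5:66016549-66173118, minus strand), the APOBEC1 cofactor, had 2 LSVs with 4 entries on both diets and 3 LSVs with 11 entries on LFD alone. Both shared LSVs concern an in-frame exon of 207 bases, or 69 codons, which separates reading frames of 590 and 521 codons. The exon is shown because it is the coding difference between these reading frames.
Rbm47 207-base exon, chr5:66024953-66025159: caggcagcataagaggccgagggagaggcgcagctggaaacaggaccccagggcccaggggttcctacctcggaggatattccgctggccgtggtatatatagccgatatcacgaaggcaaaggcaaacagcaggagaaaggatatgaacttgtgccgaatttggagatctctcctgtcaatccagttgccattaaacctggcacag
Its skipping was at 0.062 ± 0.0219 and 0.07 ± 0.0245 in HFD hepatocytes, against 0.0251 ± 0.0161 and 0.0239 ± 0.0153 in LFD hepatocytes. The differences of 0.0368 (−0.0165 to 0.0902) and 0.0461 (−0.0105 to 0.103) do not exceed the posterior error. In LFD hepatocytes alone, the junctions that join 6 alternative upstream splice sites to the same following exon were led by the farthest one (chr5:66046214-66097706) at 0.522 ± 0.0481, then 2 nearer ones at 0.232 ± 0.0404 and 0.222 ± 0.0398, which do not differ beyond their SDs, with the other 3 between 0.0126 and 0.0215. Junctions to an exon that is not annotated were at 0.0813 ± 0.0286 on its 1 side and at 0.0329 ± 0.0199 and 0.0129 ± 0.00342 on the other.

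**Figure D3:**
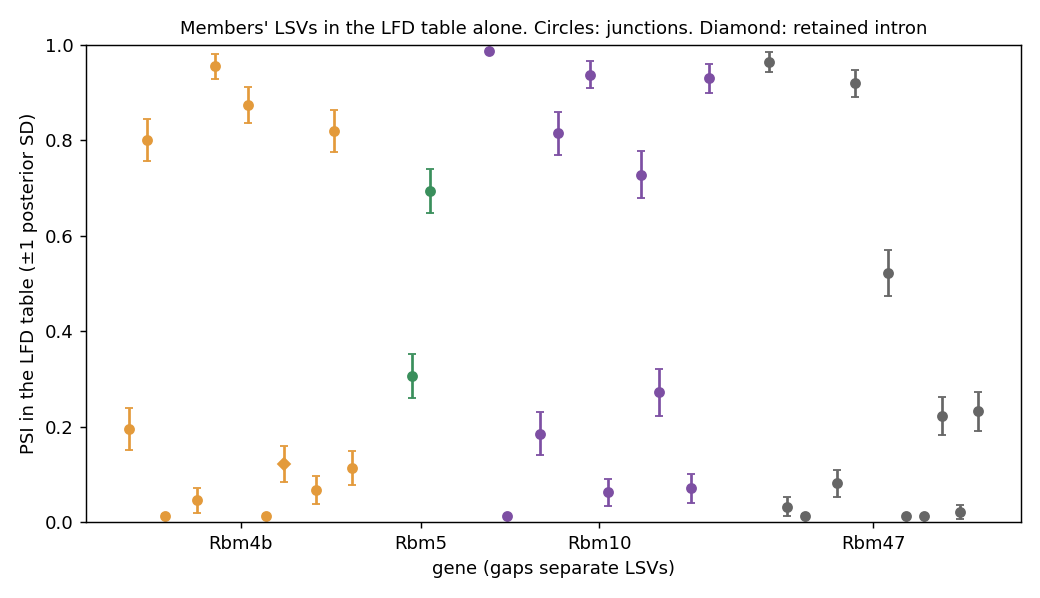
PSI in LFD hepatocytes (vertical axis, with 1 posterior SD) of the 34 entries in the 13 LSVs of Rbm4b, Rbm5, Rbm10 and Rbm47 that are in the LFD table alone, with gaps between LSVs. The Rbm5 pair at 0.306 and 0.694 and the leading upstream junction of Rbm47 at 0.522 are the entries nearest to even use.

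Set side by side, the 5 genes measured on both diets separated into Rbm4 and the rest. Rbm4 was selected because its splicing differed in this contrast, so its standing apart follows from the selection and is a description alone. The 49 shared entries of Rbm3, Rbm5, Rbm10 and Rbm47, in 20 LSVs, had absolute differences of at most 0.0925 with a median of 0.0136, and 4 of the 49 had an interval that excludes 0. In Rbm4 the median was 0.169 over 7 entries, 6 of which had such an interval. The share of all entries with such an interval was not counted, so these counts, and that of the introns below, have no background. The entries of an LSV sum to about 1 and depend on each other. No retained intron passed the rule. Of the 10 shared intron entries 5 were higher and 5 lower on HFD, and the 2 with an interval that excludes 0 were both lower. They are the 72-base stretch of Rbm3 in 1 of its 2 LSVs and the 96-base stretch of Rbm5, and neither matches an annotated intron. Of the 61 distinct junctions of the 6 genes on either diet, 55 are annotated in GENCODE M21, among them all 6 of Rbm4. Of the 36 LSVs of the 6 genes, 13 (36.1%) were listed on 1 diet alone, all 13 on LFD, against 5889 of 32799 over all genes (18%), of which 5358 were on LFD alone and 531 on HFD alone. Posterior SDs were larger on HFD in 14 of the 16 member entries with PSI between 0.1 and 0.9 on both diets, and in 81.3% of all such entries. The part of read coverage in the LFD-only listing was not tested, and an LSV not listed on HFD is not an LSV without use.

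**Figure D4:**
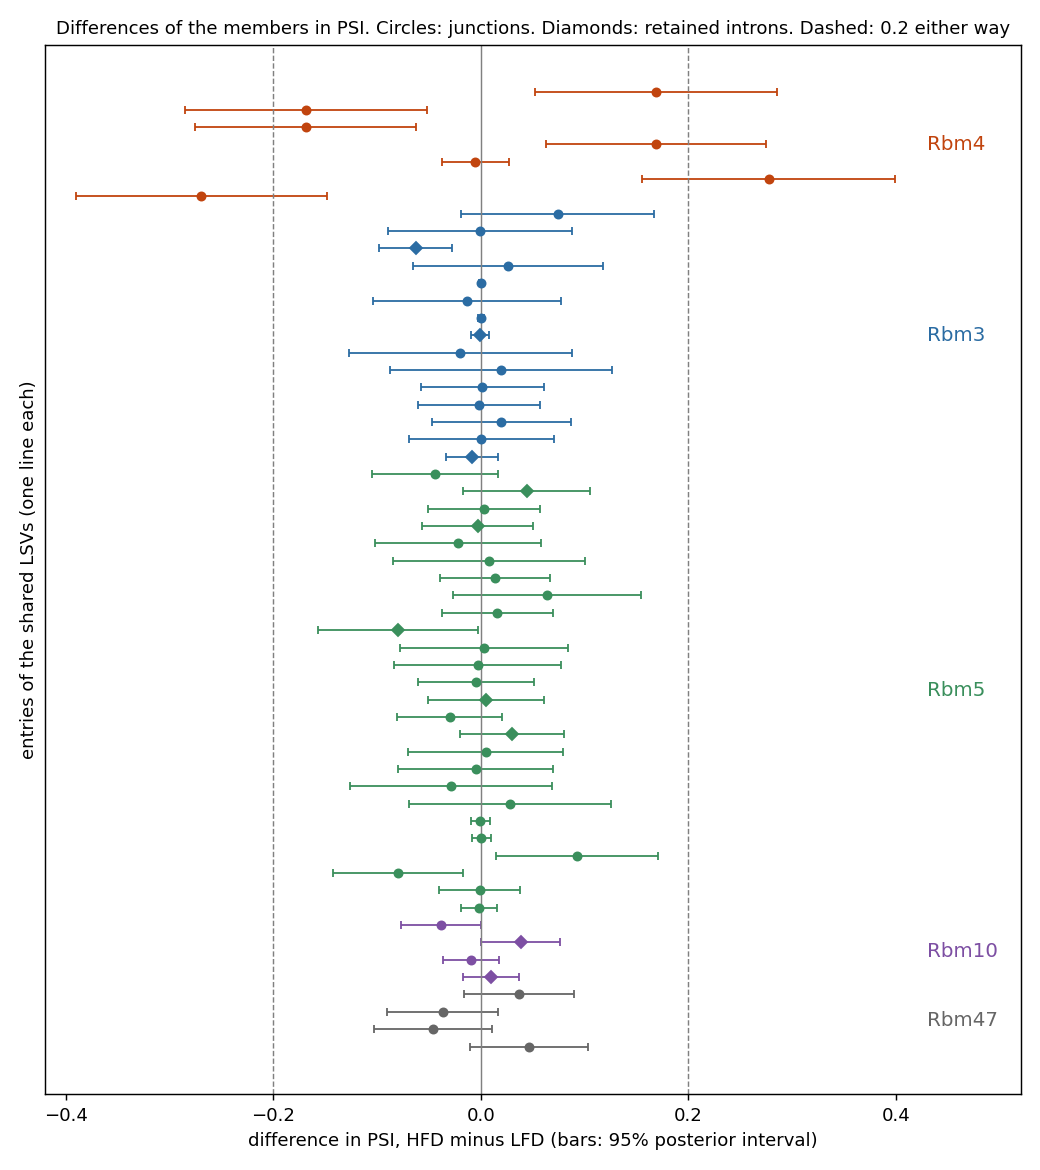
Difference in PSI, HFD minus LFD (horizontal axis, bars of the 95% posterior interval), for the 56 entries of the 5 genes measured on both diets, with 1 line per entry, circles for junctions and diamonds for retained introns. Of all entries, 2 of Rbm4 lie beyond the dashed lines at 0.2, its exon 3 entries lie at 0.169 either way, and the other genes lie within 0.0925 of 0.

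Taking the largest absolute difference of each gene, the 5 genes had a median of 0.0741, against 0.0310 over all 5978 genes. The order was Rbm4 at 0.277, Rbm5 at 0.0925, Rbm3 at 0.0741, Rbm47 at 0.0461 and Rbm10 at 0.0383. Genes with more LSVs have more chances of a large value. The members were chosen with results of this contrast known, so their median is a description and not evidence set against all genes. It is the value of an Rbm3 junction with an interval that holds 0 (−0.0189 to 0.167). The other genes whose symbols begin with Rbm, with Cirbp, formed a list of 19, of which 13 had shared LSVs and a median of 0.0454. Among those 13, Rbm25, a splicing factor, was the only gene past the rule, which called 138 of all 5978 genes (2.31%). None of the 13 is in the dPSI table or the JUM table. The Rbm25 junction at chr12:83642520-83642628 was at 0.485 ± 0.0497 in HFD and 0.259 ± 0.0406 in LFD hepatocytes, a difference of 0.226.

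**Figure D5:**
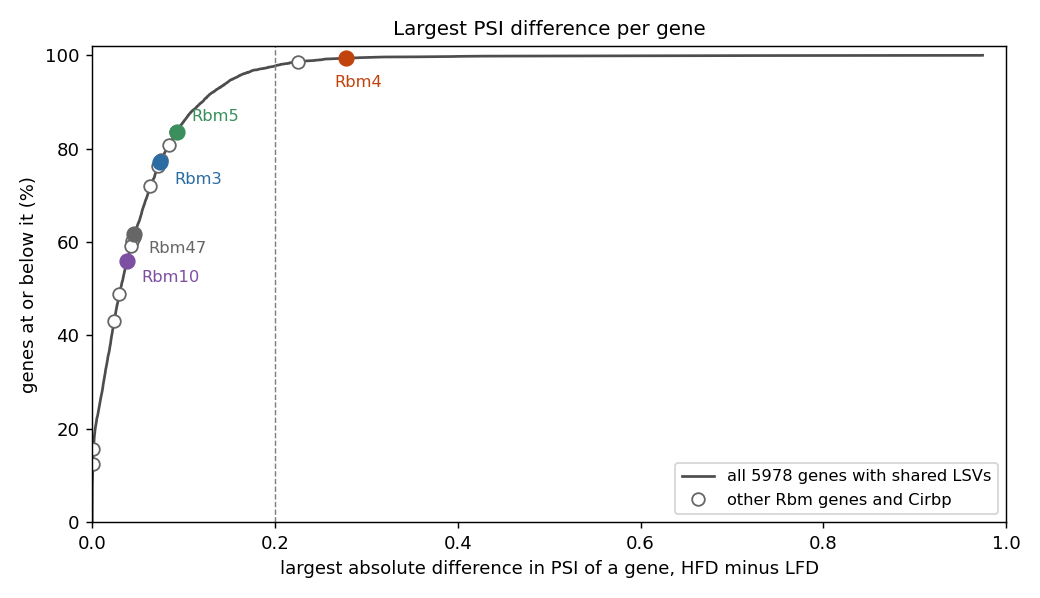
Largest absolute PSI difference of a gene (horizontal axis) against the percentage of the 5978 genes with shared LSVs at or below it (line), with the 5 members measured on both diets (filled) and the other Rbm genes and Cirbp (open). Rbm4 at 0.277 and Rbm25 at 0.226 are the marked genes to the right of the dashed line at 0.2.

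A list of 12 transcripts known as targets or partners of these proteins was read in the same way, and 10 had shared LSVs, 5 with their largest difference higher and 5 lower on HFD. Apob, whose transcript RBM47 and APOBEC1 edit, was the only one past the rule, which called 138 of all 5978 genes (2.31%). Its 126-base retained intron (chr12:8015566-8015691) was at 0.704 ± 0.0402 in HFD hepatocytes and 0.0125 ± 7.43e-06 in LFD hepatocytes. The authors' deposited dPSI table lists the same intron at 0.718 in HFD and 0 in LFD hepatocytes, a change of 0.712. The authors' deposited JUM table lists 2 intron events of Apob, neither with exactly these coordinates. The event at chr12:8015083-8015691 contains the 126-base intron and ends at the same base. A junction with that event's coordinates is in the intron's LSV in the dPSI table, at 0.05 in HFD and 0.13 in LFD hepatocytes. JUM put the event itself at −0.00182 (adjusted p 0.119), so JUM did not show the large difference there. The other event, at chr12:8013831-8013933, lies outside the intron, at 0.00396 (adjusted p 0.4). Why the programs differ was not tested. Apobec1, the editing enzyme, is in the authors' deposited dPSI table with a 334-base retained intron at 0.505 in HFD and 0.111 in LFD hepatocytes. That LSV of Apobec1 is not among those on both diets in the PSI tables, where the largest difference, in another LSV, was −0.109. Numb, a Notch inhibitor whose splicing RBM10 regulates in human cells, had its largest difference at the junction chr12:83842359-83876667, at 0.39 ± 0.048 in HFD and 0.515 ± 0.0424 in LFD hepatocytes, a difference of −0.125 with an interval that holds 0 (−0.25 to 0.000888). This junction skips an exon, and the junction of the same LSV that includes it was at 0.61 ± 0.048 in HFD and 0.485 ± 0.0424 in LFD hepatocytes. That the exon is the one RBM10 regulates was not established. The authors' deposited JUM table lists this cassette exon with a change of 0.116, a p of 0.0321 and an adjusted p of 0.335, and does not name the form, with or without the exon, that its change refers to. Bcl2l1 is a survival gene whose donor choice RBM4 regulates in human cells. Its largest difference was at a 283-base junction (chr2:152830103-152830385), at 0.371 ± 0.0407 in HFD and 0.492 ± 0.0364 in LFD hepatocytes. Whether this junction belongs to the donor choice that RBM4 regulates was not examined. The largest differences of Fas, A1cf, Tpm1, Ptbp1, Insr and Mcl1 lay between 0.0323 and 0.0707 in absolute size, all with an interval that holds 0, and Pkm and Casp2 had no listed LSV.

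The cell labels could be checked only by which marker genes had LSVs. All 10 hepatocyte markers on the list had an LSV on at least 1 diet, against 2 of 6 macrophage, 1 of 5 endothelial, 1 of 6 stellate and 1 of 5 bile duct markers. An LSV needs reads and alternative splicing and is not a level, so the part of other cells in these values was not tested. In bulk RNA, a different mix of cells and different splicing within cells cannot be told apart.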

How the data were processed

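RNA of hepatocytes from HFD and LFD mice was sequenced as stranded, paired-end mRNA libraries, per the labels' protocols. Per the submitters' processing notes, FastQC and STAR were used with the mm10 build; versions, read minimums and the settings of the strict run are not given in the sources used. The authors deposited MAJIQ tables with a PSI fraction and posterior variance per junction for each diet, per the file headers, with libraries pooled. They also deposited a dPSI table and a JUM table with p-values and changes in PSI. Depth per library is unknown.

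LSVs were matched between diets by identifier, and the rule for a called junction was run over all entries in Python 3.11 with pandas. Intervals of 95% are normal approximations from the posterior variances of both diets and cover reads alone. The rule was tested on simulated data, but no outcome of that test is given here, so its mention is no measure of accuracy. Exons, reading frames and sequences came from GENCODE M21 on GRCm38, whose exon ends match 55 of the 61 member junctions. The members and lists were chosen with earlier results of these data known. All LSVs of the members were counted and most are described, and from the lists those past the rule or in the authors' tables, with the largest difference of each known target. The dPSI table's probability column was not printed, because its values contradict its heading, the probability of a change of at least 0.2. It gave 0.307 to an Apob junction with a change of −0.621. The little-used Rbm4 donor, with a change of −5.06e-06, had a higher probability.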

Additional observations from a re-analysis of the deposited data

How the results depend on the processing

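The count of member junctions past the rule, 2, was the same by size alone, with 3 times the root of the summed variances, with posterior SDs of at most 0.05, and with junctions matched by coordinates. It was 6 with a difference of at least 0.1 and 0 with at least 0.3. The 1 member event of the JUM table became 0 at an adjusted p under 0.01. With a size of 0.1, the known targets past the rule were 3 in place of 1 (Apob, Apobec1, Bcl2l1), an alternative chosen after seeing the data. The share of all genes past the rule at that size was not counted. Of the alternatives, 9 of 13 left their count as it was. Several of these could hardly change it, so the tally is not a measure of robustness. Size alone called the same 284 of 68110 entries as the main rule, and all Rbm4 posterior SDs were already under 0.05. Counting all listed JUM events could not lower the count. Another alternative used the dPSI table's probability column, whose values contradict its heading, so that alternative carries no weight. The Rbm4 upstream donor difference was 0.304 and 0.303 in the LSVs of Gm21992 and 0.3831 in JUM. That of the downstream donor was −0.25 and −0.249 in the LSVs of Gm21992 and −0.3831 in JUM. No paired analysis was possible because the tables hold 1 pooled value per diet; leaving out a replicate was not run for the same reason. Errors cover reads in pooled libraries, not animals.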
